A study of Mus musculus with 12 samples.

Results

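The genes examined were 7 regulators of circular RNA (circRNA) formation and decay in mouse retina, Qk, Adar, Adarb1, Dhx9, Mbnl1, Mbnl2 and Rbfox1. They were taken by gene name from a table of 32867 genes, in which each name occurred with 1 Ensembl identifier. All 7 were measured in all 12 samples and all 7 passed the filter on low counts. Their levels were set beside the total of the reads across circRNA junctions in the same samples, from a table of 12510 circRNAs. RNA came from whole retina of C3H mice with wild-type alleles of Pde6b and Prph2 and of 3 mutant models, Pde6b rd1 (postnatal day 13), Pde6b rd10 (day 23) and Prph rd2 (day 29). There were 3 samples in each of the 4 groups, and the labels give 1 C3H sample to each of days 13, 23 and 29. Pde6b encodes a subunit of the rod phosphodiesterase and Prph2, altered in Prph rd2, encodes peripherin of the photoreceptor outer segment, and in all 3 models the days were set by the labels at the height of photoreceptor loss. By the methods of the study, Pde6b rd1, Prph rd2 and wild-type mice had a C3H background and Pde6b rd10 mice a C57Bl6/J background, whereas the labels give C57BL6/J for Prph rd2. Each model therefore differed from C3H also in the days sampled, Pde6b rd10 in strain as well, and these cannot be told apart from the mutation. The labels do not say whether samples were separate animals, so p-values measure the spread between these samples.

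CircRNAs form when the spliceosome joins the end of an exon back to the start of the same or an earlier exon. Pairing between the introns on both sides of the circle, or proteins that bind both introns and bring them together, favours this back-splicing. Quaking (Qk), the Muscleblind proteins (Mbnl1, Mbnl2) and the Rbfox proteins bind such introns, and Quaking and Muscleblind are known to promote circles. The RNA helicase DHX9 unwinds paired repeats in introns, and the adenosine deaminases ADAR (Adar) and ADARB1 (Adarb1) edit double-stranded RNA. Of these, DHX9 and ADAR are known to lower the yield of circles. CircRNAs lack free ends, are stable in most cells and are abundant in neurons, and endonucleases can degrade them.

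The samples held 17049495 to 24755890 gene reads and 9819 to 25009 reads over circRNA junctions. The 7 members were abundant, with 1066 to 8334 reads in any sample, against a floor of 3 reads (0.121 to 0.176 CPM). In FPKM, a level scaled by depth and gene length that can be compared between genes, they lay between 11.01 and 33.26, and their means over the 12 samples exceeded those of 89.2% (Mbnl1) to 95.7% (Dhx9) of all genes in the table. Adar overlaps Chrnb2 and Mbnl2 overlaps Gm26679 on the opposite strand, and Mbnl1 and Rbfox1 overlap other annotated genes on their own strand (2 and 1), so reads of these 4 could be shared if the counting did not use strand or left such reads to both. The counting options are not given in the sources used here.

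Cell composition differed between the groups. All 6 rod markers (Gnat1, Sag, Nrl, Pde6a, Cnga1, Rom1) were detected in every group, and their summed level was 10740 to 11170 CPM in C3H, 5534 to 5562 CPM in Pde6b rd1, 8644 to 9187 CPM in Prph rd2 and 8223 to 8556 CPM in Pde6b rd10. The 7 Müller glia markers, none at 0, summed to 3541 to 3622 CPM in C3H, 2018 to 2044 CPM in Pde6b rd1, 3873 to 4021 CPM in Prph rd2 and 3935 to 4155 CPM in Pde6b rd10. The 4 gliosis genes (Gfap, Vim, Lcn2, Edn2), none at 0, rose from 191.8 to 204.5 CPM in C3H to 709.8 to 760.5 CPM in Pde6b rd10, and the 7 microglia markers, none at 0, from 49.01 to 53.2 CPM to 137.9 to 144.9 CPM. In Pde6b rd1 and Prph rd2 the gliosis sums were 200 to 208.6 CPM and 148.6 to 175.6 CPM, and the microglia sums 49.5 to 55.33 CPM and 42.73 to 44.96 CPM. In bulk retina, fewer cells of a type and less RNA per cell cannot be told apart. The sexes differed too. Xist had 8 to 10 reads in C3H and 64914 to 83716 in Pde6b rd1, where Ddx3y, Eif2s3y, Uty and Kdm5d of the Y chromosome had 0 reads, while every Prph rd2 and Pde6b rd10 sample held at least 13428 Xist reads and at least 521 reads of each Y gene. Each Prph rd2 and Pde6b rd10 sample thus held RNA of both sexes, although the labels name no pooling of animals. The part of these differences in cells and sex in the levels below was not tested.

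In the Pde6b models the editing enzymes Adar and Adarb1 moved most among the members. Adarb1, which edits glutamate receptor transcripts, was at 20.51, 20.11 and 20.81 FPKM in the 3 C3H samples, at 14.41, 14.56 and 13.7 FPKM in Pde6b rd1, at 29.87, 30.51 and 29.08 FPKM in Pde6b rd10 and at 26.71, 26.8 and 25.32 FPKM in Prph rd2. Every Pde6b rd1 sample lay under every C3H sample, and every sample of both other models lay above them. Against C3H, the log2 fold change of Adarb1 was -0.60 (SE 0.034, adjusted p = 6.26e-13) in Pde6b rd1, 0.49 (SE 0.037, adjusted p = 5.93e-10) in Pde6b rd10 and 0.33 (SE 0.045, adjusted p = 0.000287) in Prph rd2 by edgeR's quasi-likelihood test with Benjamini-Hochberg adjustment over all genes tested. A second criterion was the study's call for a gene, an unadjusted p under 0.05 with a fold change of at least 1.5. Of the 7 members, Adarb1 in Pde6b rd1 was called by it, where 8.98% of all tested genes were called higher and 6.03% lower. That call lay at the edge, since without Pde6b rd1 replicate 3 the log2 fold change was -0.58 and the 1.5-fold threshold was missed.

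Adar, the interferon-inducible and widely expressed deaminase, followed the same order with smaller steps. It was at 13.03, 13.26 and 13.17 FPKM in C3H, at 11.01, 11.07 and 11.08 FPKM in Pde6b rd1, at 18.43, 18.99 and 18.1 FPKM in Pde6b rd10 and at 14.64, 14.33 and 13.48 FPKM in Prph rd2. No Pde6b rd1 or Pde6b rd10 sample overlapped the C3H range, and the Prph rd2 samples lay just above it. The log2 fold change was -0.32 (SE 0.037, adjusted p = 1.52e-07) in Pde6b rd1 and 0.44 (SE 0.041, adjusted p = 1.56e-08) in Pde6b rd10. In Prph rd2 it was 0.07 with a 95% interval of -0.03 to 0.18 and did not pass the test (adjusted p = 0.417).

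Dhx9, the helicase, ran the other way. It was at 26.42, 26.55 and 25.37 FPKM in C3H, at 32.63, 33.04 and 33.26 FPKM in Pde6b rd1, at 23.99, 22.69 and 24.54 FPKM in Pde6b rd10 and at 26.96, 26.1 and 27.35 FPKM in Prph rd2. The Pde6b rd1 samples were the highest of the 12 and the Pde6b rd10 samples the lowest, and the Prph rd2 samples overlapped C3H. The log2 fold change was 0.26 (SE 0.031, adjusted p = 2.05e-07) in Pde6b rd1, -0.19 (SE 0.039, adjusted p = 0.000305) in Pde6b rd10 and 0.01 (95% interval -0.09 to 0.10, adjusted p = 0.961) in Prph rd2.

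**Figure D1:**
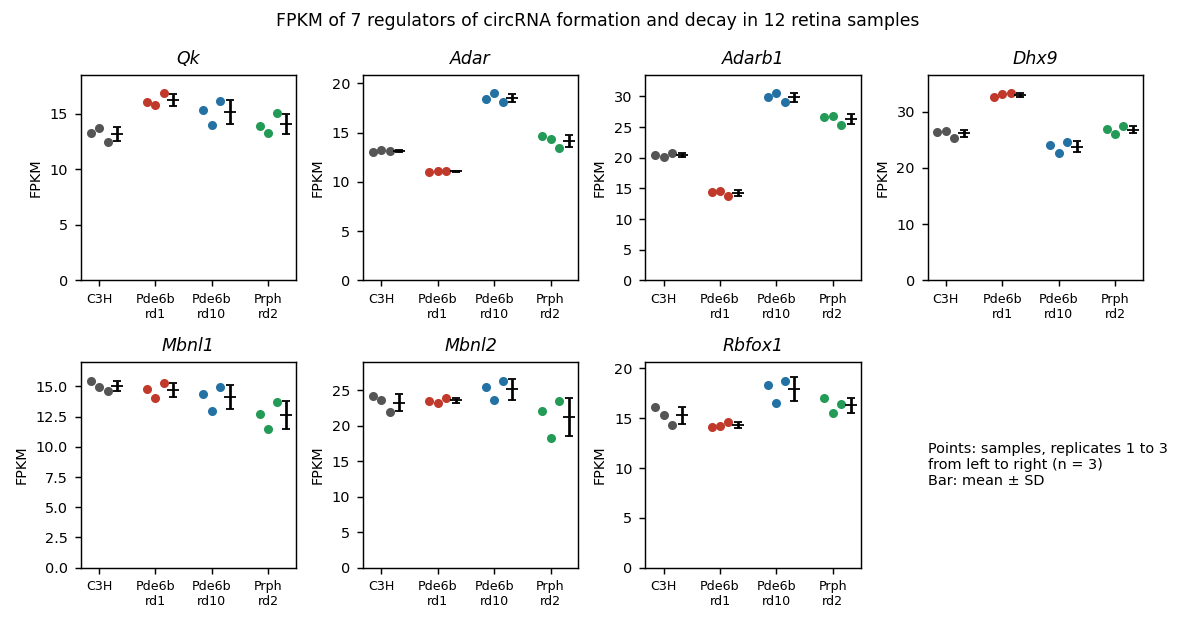
FPKM (y axis, from 0) of each member in the 12 retina samples by group (x axis). Points are samples, and the bar beside them is the mean with its SD (n = 3). Adar and Adarb1 are lowest in the Pde6b rd1 samples and highest in the Pde6b rd10 samples, Dhx9 is highest in Pde6b rd1, and the groups overlap for Mbnl2.

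Qk, which binds introns through its KH domain and is best known in glia and in muscle, was the member that was higher in both Pde6b models. It was at 13.3, 13.71 and 12.46 FPKM in C3H, at 16.04, 15.78 and 16.85 FPKM in Pde6b rd1, at 15.31, 13.99 and 16.18 FPKM in Pde6b rd10 and at 13.86, 13.25 and 15.05 FPKM in Prph rd2. The ranges of both Pde6b models lay above that of C3H, and the Prph rd2 range overlapped it. The log2 fold change was 0.23 (SE 0.037, adjusted p = 2.38e-05) in Pde6b rd1, 0.15 (SE 0.048, adjusted p = 0.0124) in Pde6b rd10 and 0.06 (95% interval -0.06 to 0.19, adjusted p = 0.556) in Prph rd2. The value for Pde6b rd10 no longer passed the test without C3H replicate 3 (adjusted p = 0.0804), without Pde6b rd10 replicate 1 (0.0522) or against the C3H sample of day 23 alone (0.394).

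Mbnl1 and Mbnl2, splicing factors that share the YGCY motif, changed little in the Pde6b models. Mbnl1 was at 15.48, 14.98 and 14.6 FPKM in C3H, at 14.75, 14.06 and 15.26 FPKM in Pde6b rd1, at 14.33, 12.99 and 14.94 FPKM in Pde6b rd10 and at 12.72, 11.44 and 13.74 FPKM in Prph rd2. Only the Prph rd2 samples lay wholly under C3H, and there the log2 fold change was -0.28 (SE 0.062, adjusted p = 0.00995), which was not kept without C3H replicate 1 (adjusted p = 0.0564) or replicate 2 (0.0507), or in limma on log2(FPKM + 1) values (0.0741). In the Pde6b models Mbnl1 passed the test with log2 fold changes of -0.11 (SE 0.035, adjusted p = 0.0165) in rd1 and -0.15 (SE 0.044, adjusted p = 0.00811) in rd10, although the FPKM ranges overlapped C3H. On the log2(FPKM + 1) scale neither passed in limma (adjusted p = 0.567 and 0.199), and the rd1 value was also lost without C3H replicate 1, Pde6b rd1 replicate 1 or Pde6b rd1 replicate 2 (adjusted p = 0.058, 0.0642 and 0.138).

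Mbnl2 was at 24.18, 23.7 and 21.96 FPKM in C3H, at 23.58, 23.23 and 23.96 FPKM in Pde6b rd1, at 25.48, 23.59 and 26.4 FPKM in Pde6b rd10 and at 22.07, 18.31 and 23.48 FPKM in Prph rd2. All groups overlapped C3H, and it passed the test in no model. Its log2 fold change was -0.05 (95% interval -0.13 to 0.02, adjusted p = 0.219) in Pde6b rd1, 0.06 (-0.03 to 0.15, 0.283) in Pde6b rd10 and -0.16 (-0.32 to 0.00, 0.221) in Prph rd2. It passed with 1 sample left out, at -0.09 without C3H replicate 3 in Pde6b rd1 (adjusted p = 0.0204), at 0.10 without Pde6b rd10 replicate 2 in Pde6b rd10 (0.0222) and at -0.24 without Prph rd2 replicate 3 in Prph rd2 (0.0261).

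Rbfox1, a neuronal splicing factor that binds UGCAUG, was at 16.11, 15.37 and 14.36 FPKM in C3H, at 14.08, 14.21 and 14.65 FPKM in Pde6b rd1, at 18.38, 16.57 and 18.78 FPKM in Pde6b rd10 and at 17, 15.51 and 16.39 FPKM in Prph rd2. The Pde6b rd10 samples lay above C3H and both other models overlapped it. The log2 fold change was -0.17 (SE 0.047, adjusted p = 0.00546) in Pde6b rd1, 0.18 (SE 0.054, adjusted p = 0.0101) in Pde6b rd10 and 0.06 (95% interval -0.07 to 0.19, adjusted p = 0.594) in Prph rd2. The Pde6b rd10 value was lost without C3H replicate 3 (adjusted p = 0.0637), without Pde6b rd10 replicate 1 (0.0566) and against the day 23 sample alone (0.142), and the Pde6b rd1 value on the log2(FPKM + 1) scale (0.151).

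**Figure D2:**
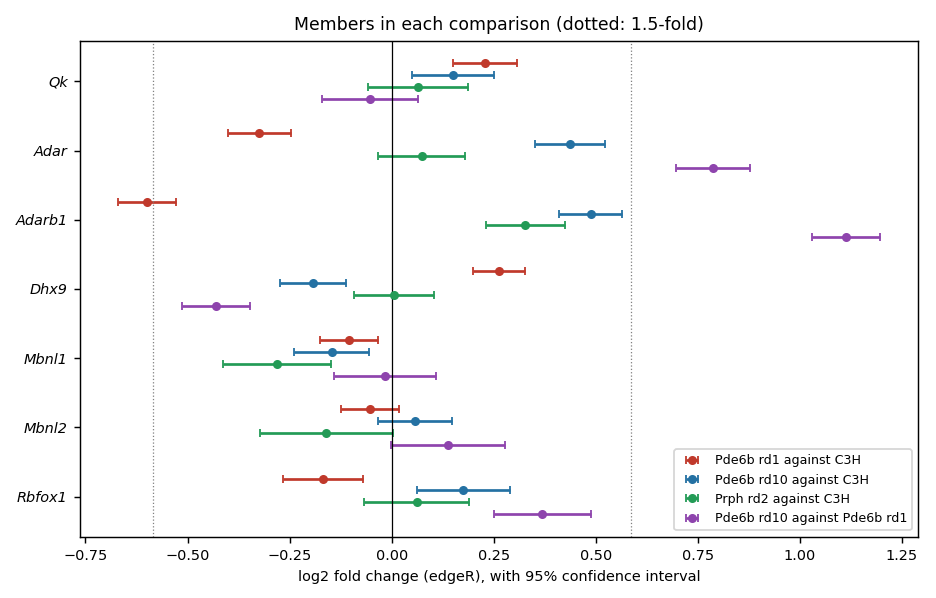
Log2 fold change (x axis) of each member (y axis) from edgeR with its 95% confidence interval, for each model against C3H and for Pde6b rd10 against Pde6b rd1. Dotted lines mark 1.5-fold. Adar, Adarb1, Rbfox1 and Dhx9 have intervals on opposite sides of 0 in the Pde6b models.

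Counted by the adjusted p alone, 2 members rose and 4 fell in Pde6b rd1, where 43.2% of all genes tested passed, 21.9% higher and 21.3% lower. In the rd10 model 4 rose and 2 fell, against 54.1% of all genes, 27.7% higher and 26.3% lower. In the rd2 model 1 rose and 1 fell, against 9.7% of all genes, 4.53% higher and 5.17% lower. The ranges of 4, 5 and 3 members did not overlap C3H in Pde6b rd1, Pde6b rd10 and Prph rd2, as was so for 50.4, 56.7 and 28.9% of all genes with at least 10 reads in a sample of the comparison. No member was called at 1.5-fold in Pde6b rd10, where 15.9% of genes were called higher and 8.08% lower, or in Prph rd2 (2.68 and 1.89%). With this background, a pass of the test in a Pde6b model did not set a member apart from other genes. The median log2 fold change of the 7 members was -0.105 (Pde6b rd1), 0.149 (Pde6b rd10) and 0.0612 (Prph rd2), beside -0.0109, -0.00248 and -0.00125 for all genes.

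Pde6b rd10 and Pde6b rd1 carry different alleles of the same gene, and the members were compared between them in 1 fit of the 12 samples. Adarb1 was 2.16-fold higher in Pde6b rd10 (log2 1.11, SE 0.040, adjusted p = 4.96e-15) and Adar 1.73-fold higher (log2 0.79, SE 0.043, adjusted p = 4.19e-12). Both were called at 1.5-fold, as were 17.6% of genes in this direction and 11.2% in the other. Rbfox1 was higher by a log2 fold change of 0.37 (SE 0.057, adjusted p = 1.32e-05), and for Dhx9 the log2 fold change was -0.43 (SE 0.040, adjusted p = 1.33e-08). These 4 passed the adjusted p, as did 57.2% of all genes, 30.2% higher and 27% lower. Qk, Mbnl1 and Mbnl2 did not, with log2 fold changes of -0.05 (95% interval -0.17 to 0.06), -0.02 (-0.14 to 0.11) and 0.14 (0.00 to 0.28). Mbnl2 passed with a sample left out (adjusted p = 0.0108 without Prph rd2 replicate 2, 0.0362 without Prph rd2 replicate 3 and 0.0388 without Pde6b rd10 replicate 2), with no filter on low counts (0.0275) and with the replicate block (0.0373). Both groups also differed in day (23 and 13), in strain and in the sex of the animals, which cannot be told apart from the allele.

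Ordered by mean FPKM, Adarb1 was the member with every neighbouring pair of groups distinct. Its mean was 29.82 ± 0.716 FPKM (SD, n = 3) in Pde6b rd10, 26.27 ± 0.829 in Prph rd2, 20.48 ± 0.353 in C3H and 14.23 ± 0.457 in Pde6b rd1, and the log2 steps between neighbours were 0.16 (adjusted p = 0.00189), 0.33 (8.3e-06) and 0.62 (2.59e-10) in the edgeR fit of 12 samples. Adar kept this order, 18.51 ± 0.451, 14.15 ± 0.602, 13.15 ± 0.114 and 11.05 ± 0.0376 FPKM, with Prph rd2 and C3H not distinct (adjusted p = 0.319). Dhx9 stood at 32.98 ± 0.319 in Pde6b rd1, 26.8 ± 0.636 in Prph rd2, 26.11 ± 0.647 in C3H and 23.74 ± 0.951 FPKM in Pde6b rd10, again with Prph rd2 and C3H not distinct (0.969). Rbfox1 had the order of Adarb1, with the step from C3H to Pde6b rd1 as the one that passed (0.0124). No neighbours of Qk (Pde6b rd1, Pde6b rd10, Prph rd2, C3H), Mbnl1 (C3H, Pde6b rd1, Pde6b rd10, Prph rd2) or Mbnl2 (Pde6b rd10, Pde6b rd1, C3H, Prph rd2) passed, and for Mbnl2 the FPKM order of Pde6b rd1 over C3H was the reverse of the fitted log2 value, 0.08 lower. Of 21 neighbouring pairs, 8 passed. Without Prph rd2 replicate 3, 13 passed.

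Each C3H sample stood for 1 day, so age and the spread between controls cannot be told apart. Adarb1 was between 20.11 and 20.81 FPKM and Adar between 13.03 and 13.26 FPKM over days 13, 23 and 29. Rbfox1 was at 16.11, 15.37 and 14.36 FPKM and Mbnl2 at 24.18, 23.7 and 21.96 FPKM on these days, so that these members had their lowest control value on day 29. Qk, Dhx9 and Mbnl1 also had their lowest control value in that sample. It had the highest base quality of the C3H samples, and the part of base quality was not tested. Against the C3H sample of the same day alone, the log2 ratio of the Adarb1 means was -0.528 in Pde6b rd1, 0.336 in Prph rd2 and 0.568 in Pde6b rd10, and that of Adar in this order -0.237, 0.103 and 0.481. With this single control in edgeR, Adarb1 in Prph rd2 no longer passed the test (log2 0.30, adjusted p = 0.147), nor did Mbnl1 in Prph rd2 (-0.24, 0.353) or in Pde6b rd10 (-0.15, 0.132). In that fit the lone C3H sample is assumed to vary like the model's samples. Across the C3H samples the summed rod markers stayed within 10740 to 11170 CPM and the Müller glia markers within 3541 to 3622 CPM. How far the same-day sample accounts for age was not tested.

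The genes most like each member over the 12 samples were sought among 11086 genes with a mean log2 CPM of at least 3, by the root-mean-square difference of centred log2 CPM. Adarb1, whose own values had an SD of 0.443, was followed most closely by Ppip5k1 (0.0423) and Slc6a17 (0.055), and Adar (SD 0.289) by Cyfip2 (0.0398). Dhx9 (SD 0.17) had Elavl1 (0.0306) and Lats1 (0.0313), and Qk (SD 0.118) had Exoc2 (0.0399) and Ccdc15 (0.0412). Mbnl1 (SD 0.129) had Mmd (0.0324) and Hdac9 (0.0519), Mbnl2 (SD 0.129) had A530058N18Rik (0.0378) and Impg2 (0.0505), and Rbfox1 (SD 0.151) had Dennd4a (0.0402) and Dnm3 (0.046). For every member the difference from these genes was smaller than its own SD, and these are the closest of 11086 genes.

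Another 62 genes of circRNA formation, spliceosome and 3′ end processing, export, m6A methylation and decay were examined in 4 lists, of which 61 were in the table. Among 22 formation genes, 14 rose and 3 fell in Pde6b rd1, with a median log2 fold change of 0.201, beside 21.9% of all genes higher and 21.3% lower. In Pde6b rd10, 5 rose and 8 fell (median -0.083), beside 27.7% and 26.3% of all genes. In Prph rd2, 1 rose (median -0.0131), beside 4.53% and 5.17%. These values are given for genes chosen after their values were seen. Ptbp2, the neuronal polypyrimidine tract binding protein, rose by a log2 fold change of 0.50 (adjusted p = 7.53e-10), Hnrnpa1 by 0.41 (1.03e-09), Srsf6 by 0.36 (5.16e-09) and Nova2 by 0.34 (1.56e-06) in Pde6b rd1. Of the genes of the list that fell there, Rbm20, a splicing factor best known in muscle, was at -0.49 (9.9e-08) and Hnrnpl at -0.15 (0.000357). In Pde6b rd10, Hnrnpa1 was at -0.18 (0.00112) and Nova1 at -0.31 (1.97e-05), while Nova1 in Pde6b rd1 was at 0.28 (9.81e-06). The called genes of this list were the epithelial splicing regulator Esrp1, lower in Pde6b rd1 (log2 -1.19, SE 0.22, adjusted p = 8.78e-05) and in Pde6b rd10 (-1.39, SE 0.22, 2.24e-05), and Mbnl3, another Muscleblind gene, higher in Pde6b rd10 (0.81, SE 0.26, 0.0114). Both are scarce in retina, with 20 to 115 and 13 to 49 reads per sample. Adarb2, a deaminase-like protein without known editing activity, passed the test as higher in all 3 models (log2 0.23, 0.18 and 0.24).

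Loss of spliceosome or 3′ end processing factors is known to favour circles over linear RNA. The list of 10 such genes also holds Dbr1, the debranching enzyme, which has another role. Of these 10, 2 rose and 2 fell in Pde6b rd1, 1 rose and 2 fell in Pde6b rd10, and 0 passed in Prph rd2. Snrpb, a core protein of the small nuclear ribonucleoproteins, had the largest change of these, at 57.59 ± 1.38 FPKM in C3H and 41.28 ± 1.16 FPKM in Pde6b rd10 (log2 -0.54, adjusted p = 2.21e-09). Of 9 export and m6A genes, 4 rose and 1 fell in Pde6b rd1, 1 rose and 5 fell in Pde6b rd10 and 0 passed in Prph rd2. Of 20 decay genes, 6 rose and 2 fell in Pde6b rd1, 4 rose and 2 fell in Pde6b rd10, and 2 fell in Prph rd2. Of all 4 lists together, 34 genes passed in Pde6b rd1 (55.7% of 61), 28 in Pde6b rd10 (45.9%) and 3 in Prph rd2 (4.92%), beside the shares of all genes given above.

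Eif2ak2, listed with the decay genes, encodes the kinase PKR, which double-stranded circRNAs can hold inactive. It was at 1.26 ± 0.0755 FPKM (SD, n = 3) in C3H, 1.35 ± 0.0845 in Pde6b rd1, 0.93 ± 0.0582 in Prph rd2 and 4.44 ± 0.306 in Pde6b rd10. It rose in Pde6b rd10 (log2 1.76, SE 0.091, adjusted p = 1.02e-12) and fell in Prph rd2 (-0.48, SE 0.12, adjusted p = 0.0229). Beside it stand the microglia and gliosis sums, which were also higher in Pde6b rd10; their part was not tested. Pop4 and Rpp40, subunits of RNase P and MRP, changed in opposite directions in Pde6b rd10, at 0.89 (SE 0.090, adjusted p = 4.52e-08) and -0.93 (SE 0.16, adjusted p = 6.06e-05).

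The circRNA total was expressed as junction reads per 1000000 gene reads (junction RPM). It was 867.9, 916.6 and 733.8 in the C3H samples, 685.3, 575.9 and 589.3 in Pde6b rd1, 771, 854.8 and 894.8 in Prph rd2 and 1010, 965.9 and 1046 in Pde6b rd10. All Pde6b rd1 samples lay under and all Pde6b rd10 samples above the other groups, and Prph rd2 overlapped C3H. C3H replicate 3, Prph rd2 replicate 1 and Pde6b rd10 replicate 2 had the highest base quality in the study's sequencing summary. Each of them held the lowest total of its group, and Pde6b rd1 had no such sample. The part of base quality in the totals was not tested. The means were 839.4 ± 94.7 (SD, n = 3) in C3H, 616.8 ± 59.7 in Pde6b rd1, 840.2 ± 63.2 in Prph rd2 and 1007 ± 40.1 in Pde6b rd10. The 4 groups differed in a permutation test of the F statistic (F = 16.99, exact p = 0.0011 over all 369600 assignments of 12 samples). In pairs, Pde6b rd1 was at 0.735 and Pde6b rd10 at 1.2 times C3H (exact permutation test, two-sided p = 0.1 each, the smallest that 3 against 3 samples allow), and Pde6b rd10 at 1.63 times Pde6b rd1 (p = 0.1, exact). Prph rd2 was at 1 times C3H (p = 1, exact). These ratios pool the days of C3H. Against the C3H sample of the same day alone, the log2 ratio was -0.493 in Pde6b rd1 and 0.136 in Pde6b rd10. With the days pooled it was -0.445 and 0.263. For Prph rd2 the same-day sample was C3H replicate 3, the lowest C3H total (733.8), and every Prph rd2 sample lay above it. Whether age or the spread between controls lies behind this cannot be told apart.

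**Figure D3:**
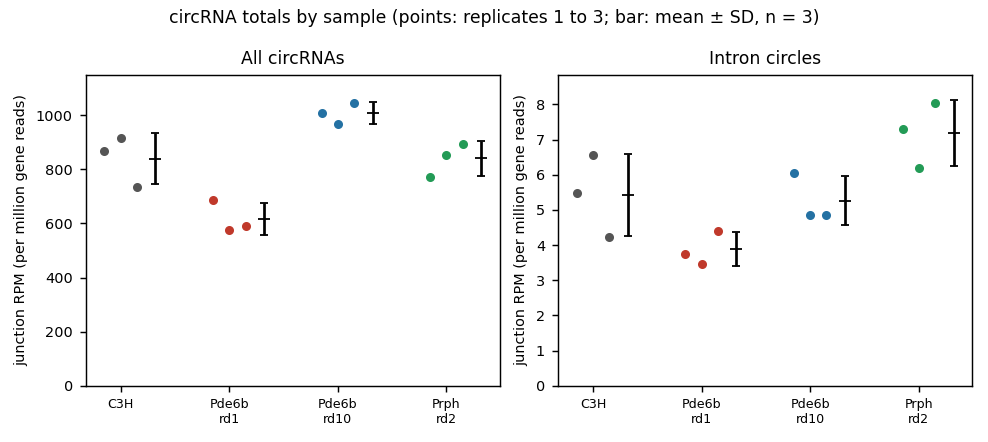
Junction RPM (y axes, from 0) of all circRNAs and of intron circles in each sample by group (x axis). Points are samples and the bar beside them is the mean with its SD (n = 3). All circRNAs together are lowest in Pde6b rd1 (575.9 to 685.3) and highest in Pde6b rd10 (965.9 to 1046), whereas intron circles are highest in Prph rd2 (6.184 to 8.043).

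Set side by side, the order of the circRNA total over the groups was Pde6b rd1, then C3H and Prph rd2, then Pde6b rd10. C3H stands here as the mean over its days, and every Prph rd2 sample lay above the C3H sample of day 29. The levels of Adar, Adarb1 and Rbfox1, in which Pde6b rd1 was lowest and Pde6b rd10 highest, had their ends in this order, and Dhx9 had its ends reversed. Qk had its highest mean in Pde6b rd1, not distinct from Pde6b rd10, and Mbnl1 and Mbnl2 had their lowest means in Prph rd2. Whether any member acts on the total was not tested. The 12 samples fall into 4 groups of 3, so no correlation of a member with the total was computed, and whether members and total vary together within groups was not tested.

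Without the 20 circRNAs with most reads, the log2 ratio of the total to C3H was -0.458 in Pde6b rd1 and 0.284 in Pde6b rd10. With counts scaled by the gene table, 1295 of 1791 circRNAs with at least 2 reads in 3 samples had a log2 fold change under 0 in Pde6b rd1 (72.3%), with a median of -0.498, while the median of their host genes was 0.0684. In Pde6b rd10, 960 of 2339 were under 0 (41%), with medians of 0.243 for circRNAs and -0.0668 for hosts. In Prph rd2, 1118 of 2207 were under 0 (50.7%), with medians of -0.0181 and 0.0269. The median log2 difference between circRNA and host gene was -0.55 in Pde6b rd1, -0.04 in Prph rd2 and 0.293 in Pde6b rd10. A circRNA could pass the filter on the reads of 1 group alone. These shares and medians therefore lean in the direction of the total and are no separate support for it. Against all host genes' reads as the denominator the log2 ratio of the total was -0.46 in Pde6b rd1 and 0.297 in Pde6b rd10, close to -0.445 and 0.263 over all gene reads.

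CircRNAs were also grouped by what their introns hold, in windows of the RefSeq GRCm38 genome. The motifs ACTAAC or ACTAAT (Quaking), TGCATG (Rbfox) and GCTTGC (Muscleblind) were searched on the strand of the host gene in the 250 bases before and after each circle; TGCATG and GCTTGC can share the letters TGC. They stood in either flank of 17.8, 20.4 and 12% of the 12510 circRNAs and in both flanks of 0.903, 1.3 and 0.336%. Circles with a Quaking motif in either flank were at 0.771 times C3H in Pde6b rd1 and at 1.17 times in Pde6b rd10, beside 0.727 and 1.21 for all other circRNAs. The corresponding values for an Rbfox motif were 0.746 and 1.17 beside 0.731 and 1.21, and for a Muscleblind motif 0.777 and 1.17 beside 0.73 and 1.2. Circles with at least 100 repeat-masked bases in the 500 bases on each side were at 0.745 and 1.19 beside 0.731 and 1.21. Repeats of any kind counted for this class. Pairing between the sides, on which DHX9 and the deaminases act, was not examined. The share of junction reads in this class was 28.2% in C3H, 28.6% in Pde6b rd1, 28.2% in Prph rd2 and 27.9% in Pde6b rd10. Classes with a motif in both flanks held 42 to 163 circRNAs and varied more, from 0.678 (Rbfox, Pde6b rd1) to 1.31 (Rbfox, Pde6b rd10). These classes were formed after the totals were known and are given with no test.

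**Figure D4:**
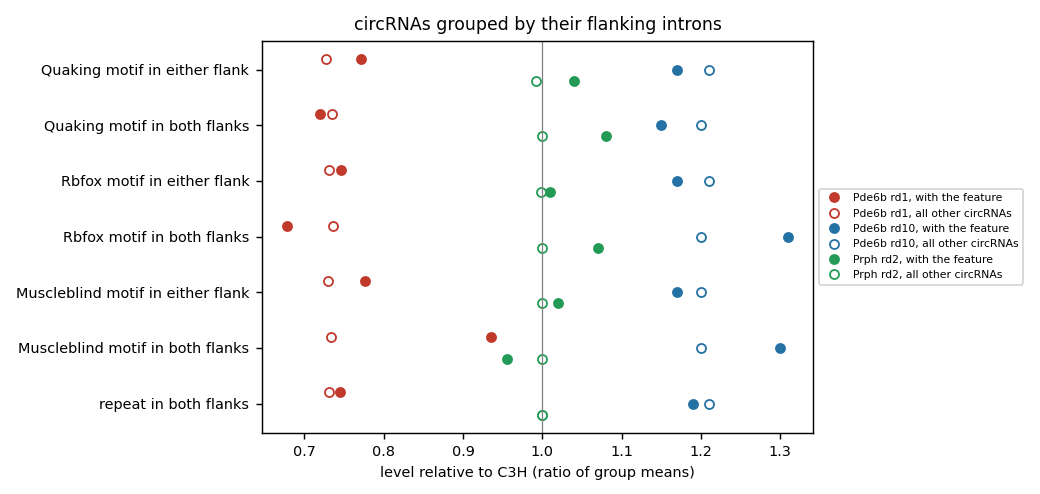
Level relative to C3H (x axis, ratio of group means of junction RPM) of circRNAs with each feature in their flanking introns (y axis, filled points) and of all other circRNAs (open points) in each model. For each feature in either flank and for repeats, filled and open points of a model lie close together, within 0.745 to 0.777 of C3H for the circRNAs with the feature in Pde6b rd1.

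The members host circRNAs of their own, 18 of the 12510. Mbnl2 hosted 3, Mbnl1 2, Dhx9 5, Rbfox1 5 and Qk 3, and none was listed for Adar or Adarb1 in a table that leaves out candidates under 2 junction reads. The sequences across the back-splice are shown for some of them. Beside each stands the kind of circle, which was set from annotated exon ends and not from the sequence. The sequences are read from RefSeq GRCm38 on the strand of the gene. The last 15 bases of the circle are in lower case and its first 15 in capitals.

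Mbnl2, chr14:120324794-120325412, plus strand, exon circle: tttgattccctcaagAATTTAAAGAGGACG
Mbnl1, chr3:60528756-60529804, plus strand, exon circle: tttgattcactgaaaGTTGGTACTAAGAAG
Mbnl1, chr3:60613263-60615773, plus strand, exon circle: catttctcccaccagGTGTGTCGAGAGTAC
Qk, chr17:10238893-10282981, minus strand, exon circle: ttactggtacctgcgAAATTAGCAGAGTAC
Dhx9, chr1:153469600-153478189, minus strand, exon circle: tgttttgtactgtagACTCTAGAGTCAGAA
Qk, chr17:10213480-10216159, minus strand, intron circle: ctgtcaatgtttcccGTAAGTATGATTCCT
Qk, chr17:10216563-10217715, minus strand, intron circle: tccttttatttttctGTAAGAATGAGCCTA
Mbnl2, chr14:120389164-120395588, plus strand, intron circle: atatttttttccttcGTAAGTGCGCCCGCC
Dhx9, chr1:153465778-153467031, minus strand, intron circle: gattgtccctgacagGTAAATTTTGTGTAA

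The Mbnl2 circle on chromosome 14 was by far the most abundant of the 18. It is 1 exon of 619 bases that holds the start codon, and a circle from the corresponding exon of Muscleblind genes is a textbook case of a regulator whose own RNA circularises; the Mbnl1 circle of 1049 bases, with a like end sequence, also is 1 exon with the start codon. The Mbnl2 circle had 12, 15 and 8 junction reads in C3H, 9, 4 and 11 in Pde6b rd1, 14, 5 and 17 in Prph rd2 and 21, 7 and 10 in Pde6b rd10. It was found in all 12 samples and ranked 253 of 12510 by total reads, and its groups overlapped throughout. Per 1000 reads of Mbnl2 there were 1.94 ± 0.357 (SD, n = 3) in C3H, 1.43 ± 0.575 in Pde6b rd1, 1.89 ± 0.823 in Prph rd2 and 1.89 ± 0.779 in Pde6b rd10. Scaled by all circRNA reads, its log2 fold change was -0.15 (95% interval -1.08 to 0.79, adjusted p = 0.985) in Pde6b rd1, -0.12 (-0.94 to 0.70, 0.947) in Pde6b rd10 and -0.02 (-0.94 to 0.89, 0.997) in Prph rd2 by edgeR.

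The Qk circle on chromosome 17 joins 3 exons of 404 bases in all and had 19 reads in 11 of 12 samples, at most 3 in any. The Dhx9 circle joins 8 exons of 997 bases and had 19 reads in 8 samples, and the larger Mbnl1 total, 8 reads in 3 samples, came from a circle of 3 exons. The 5 Rbfox1 circles had 2 to 4 reads, each in 1 sample. Of the hosted circRNAs, 3, 2 and 3 had enough reads to be tested in Pde6b rd1, Pde6b rd10 and Prph rd2, and 0 were called at an unadjusted p under 0.05 and 2-fold by edgeR, where 1.12, 6.71 and 2.04% of circRNAs were called higher and 5.25, 5.13 and 1.4% lower. All of their unadjusted p-values were above 0.05, and 0 were called by DESeq2. At 0 to 3 reads a sample for the Qk circle and 0 to 5 for the Dhx9 circle, differences were not detectable at this depth.

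Circles with both ends at annotated exon ends were classed as exon circles. Of the rest, those whose start follows an annotated exon end were classed as intron circles. The first bases alone do not set the class, since the Mbnl2 exon circle chr14:120388900-120396604 also opens with GTA. In the intron circles shown above, the capitals open with the splice donor, a form known from intron lariats that escape debranching. The larger of these circles in Qk also overlaps coding sequence of another annotated transcript and so is not intron in every annotated form. Such intron circles made up 498 of the 12510 circRNAs (3.98%) and 4 of the 18 of the members, against 11982 (95.8%) with both ends at annotated exon ends and 30 of neither kind. Their total in junction RPM was 5.491, 6.572 and 4.24 in C3H, 3.755, 3.461 and 4.412 in Pde6b rd1, 7.31, 6.184 and 8.043 in Prph rd2 and 6.059, 4.861 and 4.849 in Pde6b rd10, from 59 to 195 reads a sample. The Prph rd2 samples were the highest group with an overlap in 1 C3H sample, and as a share of junction reads they lay between 0.723 and 0.948%, above every C3H sample (0.578 to 0.717%) but overlapping Pde6b rd1 (0.548 to 0.749%). Exon circles, in contrast, were at 0.999 times C3H in Prph rd2. Dbr1, the debranching enzyme that opens lariats, was at 5.7 ± 0.269 FPKM in C3H, 5.68 ± 0.697 in Pde6b rd1, 5.76 ± 0.2 FPKM in Pde6b rd10 and 5.62 ± 0.449 FPKM in Prph rd2 and passed the test in no model (adjusted p = 0.514, 0.681 and 0.778). It was singled out after its values were seen, as was this class, and no test was run on the class.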

How the data were processed

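Whole retinas of 12 mouse samples were sequenced after removal of ribosomal RNA with a directional kit. Gene counts were made by the authors, who aligned reads to GRCm38 and counted them per gene with HTSeq 0.11.2. In the authors' FPKM values the counts are scaled by gene length and library size. Junction counts of circRNAs were deposited without normalization, and come from TopHat2 2.1.1 and CIRCexplorer, with candidates under 2 reads discarded. The deposited circRNA TPM values are scaled within each sample and carry no total, so they served in 1 alternative only.

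Each model was tested against C3H with edgeR 4.0.16 in R 4.3.3 (TMM, filterByExpr, quasi-likelihood test, Benjamini-Hochberg adjustment over all tested genes). edgeR folds are TMM-scaled and differ slightly from ratios of FPKM. Pde6b rd10 was compared with Pde6b rd1, and neighbours in an order of levels with each other, by contrasts in a fit of 12 samples. CircRNAs needed 2 reads in 3 samples of a comparison. Tested on simulated data, the gene fit of each comparison recovered 98 to 99% of 200 genes changed 2- or 4-fold. The circRNA fit recovered 60.5 to 62.5% of 200 circRNAs changed 4-fold. All member changes against C3H were under 2-fold, so the gene recovery does not apply to them. Totals were compared by exact permutation tests in Python 3.11.15 with numpy 2.4.6, pandas 2.3.3 and scipy 1.17.1.

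The members and lists were chosen with earlier results of these data known. Named were all members, called pathway genes (up to 3 per list, comparison and direction), the circRNA with most reads per member and the 2 genes most like each member, and genes chosen otherwise are said to be. A few genes that these rules or the marker lists hold are not reported here. Listed circRNA starts count from 0: with this reading 98.1% of circRNAs follow an AG. They are printed counted from 1. No 50-base word is shared between Mbnl1 and Mbnl2 or between Adar and Adarb1 transcripts (0 in each pair). Replicate numbers did not pair samples, as given in the closing section.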

Additional observations from a re-analysis of the deposited data

Results flagged for a closer look

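In 4 members the effect against C3H had opposite signs in the Pde6b models, and the difference itself passed the test in the fit of 12 samples. The log2 difference of Pde6b rd10 from Pde6b rd1 was 1.11 for Adarb1, 0.79 for Adar, 0.37 for Rbfox1 and -0.43 for Dhx9. Groups of 3 samples were too small to look for single outlying samples.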

How the results depend on the processing

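Of 420 recomputed log2 fold changes of members, 380 kept direction and side of the threshold, 23 lost the adjusted p, 9 gained it and 8 changed sign, none of which passed the test before or after. The sign changes were Mbnl2 in Pde6b rd1 on log2(FPKM + 1) and log2(FPKM + 0.1) values (0.0197 and 0.0204), Mbnl1 in Pde6b rd10 against Pde6b rd1 without Pde6b rd1 replicate 3 (0.0182) and without Pde6b rd10 replicate 2 (0.0392), Qk there without Pde6b rd10 replicate 2 (0.00115), and Dhx9 in Prph rd2 without C3H replicate 3, Prph rd2 replicate 1 or Prph rd2 replicate 3 (-0.012, -0.00104 and -0.0131). With samples left out in turn these 3 members lay between -0.0583 and 0.0392 (Mbnl1), -0.101 and 0.00115 (Qk) and -0.0131 and 0.0288 (Dhx9). Of members called at 1.5-fold in Pde6b rd1, 1 became 0 in limma with either pseudocount, and 0 to 1 with samples left out in turn. By the adjusted p alone, an alternative chosen after seeing the data, 6, 6, 2 and 4 members passed in Pde6b rd1, Pde6b rd10, Prph rd2 and between the Pde6b models. Pathway genes called were 1 of 2 in Pde6b rd1 and 2 of 5 in Pde6b rd10 in limma on log2(FPKM + 1), and 0 of 1 in Prph rd2 in limma with either pseudocount and with the C3H sample of the same day, and 0 to 1 with samples left out. Distinct neighbours, 8 of 21, ranged from 7 to 13 with samples left out.

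As a row of the gene table, the circRNA total passed edgeR's test in Pde6b rd1 (log2 -0.52, adjusted p = 1.46e-07) and Pde6b rd10 (0.208, 0.00253), also with the replicate block (-0.518 and 0.213, adjusted p = 9.75e-09 and 0.00374). In Prph rd2 its log2 ratio of 0.00129 changed sign as a row of the gene table (-0.0309; -0.0276 with the replicate block), with TMM library sizes (-0.00345), over circRNAs with 2 reads in 3 of 12 samples (-0.0129), per host gene reads (-0.00892) and without rod markers in the denominator (-0.0016), the last pair chosen after seeing the data, and lay between -0.0868 and 0.0692 with samples left out. The cause of these changes was not tested. The 4-group F lay between 11.37 and 28.53 with samples left out (exact permutation p of 0.00039 to 0.00487). Same-numbered samples did not deviate together (correlations of -0.419 to 0.0688), so the replicate numbers were not taken as pairs; a block moved the distinct neighbours from 8 to 12 and no count of called members. Depth limits the circRNAs hosted by members, with 21 reads or fewer in any sample.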
